A study of Mus musculus with 12 samples.

Results

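The genes described here are the dual-specificity phosphatases (Dusp), the Sprouty genes (Spry) and the Sprouty-related Spred genes, chosen by symbol from a table of read counts in mouse heart. Of the 24062 gene symbols in the table, 31 matched: 10 MAPK-specific Dusp genes (Dusp1, Dusp2, Dusp4 to Dusp10 and Dusp16), 14 other Dusp genes, called atypical here, 4 Sprouty genes and 3 Spred genes. Whole hearts of 12 mice were sequenced as poly(A) RNA, 3 mice in each of 4 groups. The adult mice were 2 months old and were either WT or KI/KI, the latter homozygous in every cell for the Lemd2 c.T38>G allele. The newborn mice were taken at postnatal day 1 (P1) and all carried Lemd2 fl/fl, with loxP sites around the first exon. In the cKO mice this exon was removed by Cre under the Myh6 (α-MHC) promoter, which is active in cardiomyocytes (CMs), so that the other cells of the heart kept the gene, while the floxed controls had no Cre. LEMD2 is a protein of the inner nuclear membrane, and the comparisons asked which genes differed in the heart when it was mutated or lost. Total counts ranged from 37063669 to 44789753 per heart.

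MAP kinases (ERK, JNK and p38) are switched on by phosphorylation of a threonine and a tyrosine, and the MAPK-specific Dusp phosphatases remove both phosphates. Several of these enzymes, and the Sprouty and Spred proteins that act upstream on receptor tyrosine kinases and Ras, are themselves transcribed in response to ERK signalling and so form a negative feedback loop. In the heart this pathway is known for its part in growth and hypertrophy of CMs. The atypical Dusp proteins share the catalytic fold but mostly lack the MAPK-binding domain, and several act on substrates other than MAP kinases.

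The promoters are shown for genes whose transcription is known to respond to signalling. RefSeq entries (GRCm38.p6, 300 bases around the annotated start) were at hand for 23 of the 31 genes, and each window printed runs 5′ to 3′ on the strand of the gene from base -150 to base -51, counted from the start. Dusp1 (chr17:26508523-26508622, minus strand) and Dusp8 (chr7:142095335-142095434, minus strand) are shown for their cyclic AMP response elements (CRE, TGACGTCA, in capitals), of which Dusp1 had 1 and Dusp8 had 2. Dusp5 (chr19:53528995-53529094, plus strand) is shown for 2 adjacent matches to the CArG box, the binding motif of serum response factor, also in capitals. Dusp6 (chr10:99263081-99263180, plus strand) and Spry1 (chr3:37639797-37639896, plus strand) are shown because their transcripts had the smallest p values among the members in cKO hearts, and they hold none of the motifs searched.
Dusp1: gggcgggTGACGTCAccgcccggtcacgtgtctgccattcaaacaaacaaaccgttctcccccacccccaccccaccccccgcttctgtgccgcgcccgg
Dusp8: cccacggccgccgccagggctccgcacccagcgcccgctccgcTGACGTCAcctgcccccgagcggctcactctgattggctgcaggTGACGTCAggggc
Dusp5: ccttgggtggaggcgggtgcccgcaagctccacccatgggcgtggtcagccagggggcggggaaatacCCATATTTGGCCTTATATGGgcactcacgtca
Dusp6: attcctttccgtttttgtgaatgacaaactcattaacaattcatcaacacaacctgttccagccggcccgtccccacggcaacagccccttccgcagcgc
Spry1: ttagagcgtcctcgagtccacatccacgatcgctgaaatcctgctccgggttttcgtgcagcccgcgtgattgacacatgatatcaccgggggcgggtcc

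On both strands of the whole 300-base promoters, a CRE was found in 1.79% of 32851 RefSeq windows and, among the members, in Dusp1 at -143 and in Dusp8 at -107 and -63. A CArG box was present in 1.63% of all windows and in Dusp5 alone, at -82 and -72. The AP-1 site (TGACTCA or its complement) was present in 5.2% of windows and in 1 member, Dusp13. An ETS site (CCGGAA), present in 14.9% of windows, occurred in Dusp14, Dusp27 and Spry2, and a p53 half-site, present in 8.36%, occurred in none. Of the 6 promoters at hand among the 8 genes that rose in cKO hearts, described next, 1 held any of these motifs (Dusp8). No entry was at hand for Dusp4 and Spry4. How many of all windows hold any of the motifs was not counted, so 1 of 6 is not read as few or many. The motifs are letter matches in a fixed window and were not tested for binding.

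In P1 cKO hearts, 8 of the 27 members that could be tested rose and none fell. Counts were fitted with edgeR's quasi-likelihood test over every gene left by its filter for low counts, and a gene was counted as changed at a Benjamini-Hochberg adjusted p under 0.05. The 8 were Dusp4, Dusp6, Dusp8, Dusp3, Spry1, Spry4, Spred1 and Spred2, or 29.6% of the members tested, against 9.32% higher and 7.57% lower among 15317 genes. Of these, 4 (Dusp4, Dusp6, Dusp8 and Spry1) rose by more than 2-fold, against 2.85% of all genes. The 4 members not tested, Dusp13, Dusp15, Dusp21 and Spry3, were at or below 0.262 CPM (counts per normalized library, scaled to a common size) in every heart. In 12 members all 3 cKO hearts lay above all 3 floxed hearts (44.4%, against 20.1% of all genes), and in 1, Dusp28, they lay below (19.3% of all genes). The median log2 fold change was 0.43 for the 10 MAPK-specific Dusp genes (0.264 over those with a mean of at least 1 CPM, which leaves out Dusp9), -0.11 for the 11 atypical Dusp genes tested, 0.85 for 3 Sprouty genes and 0.49 for 3 Spred genes, while it was -0.004 over all genes tested. These medians describe the classes and were not tested against one another.

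**Figure D1:**
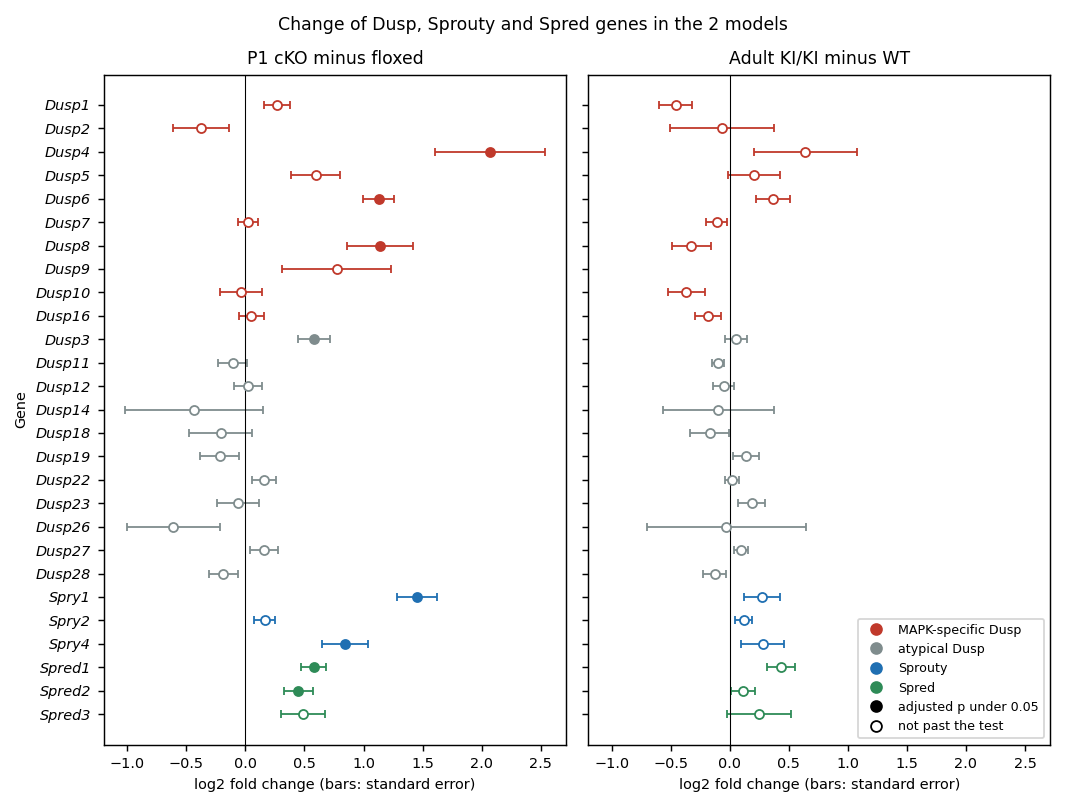
Log2 fold change of each tested member (points) with its standard error (bars) in P1 cKO against floxed hearts (left) and in adult KI/KI against WT hearts (right). Filled points passed an adjusted p of 0.05; all 8 filled points are in the left panel and lie to the right of 0.

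The targeted gene followed the labels. Lemd2 had 24.4, 25.1 and 25.3 CPM in the floxed hearts and 6.64, 13.1 and 11.3 in the cKO hearts, a log2 fold change of -1.27 with a standard error (SE) of 0.22 (adjusted p = 0.0142). CPM are given with TMM factors over all 12 hearts, in the order of the replicate numbers, and fold changes come from the fit of the 6 hearts compared. The lowest value belonged to cKO 4, which also had Xist at 617 CPM and a mean log2 CPM of -5.30 over 4 Y-linked genes, where all other hearts had Xist at or below 2.03 CPM and a mean of at least 5.55. By these genes cKO 4 reads as female and every other heart as male, while the labels give no sex. Summed CM markers ranged from 33160 to 37860 CPM in floxed and from 24880 to 27670 in cKO hearts. Of the 6 markers, 3 passed the test as lower and none as higher, while Actn2 had a log2 fold change of 0.32 (adjusted p = 0.154). The sums of macrophage markers (86.1 to 98.7 against 99.8 to 199 CPM, 3 of 5 passing the test as higher) and cycling markers (260 to 368 against 412 to 1003 CPM, 2 of 5) lay higher in cKO hearts. So did the sum of fibroblast markers (2672 to 3023 against 3246 to 3833 CPM), of which 2 of 6 passed the test as higher (Col1a1 and Tcf21) while Lum, Pdgfra and Dcn had log2 fold changes from -0.17 to -0.14. Smooth muscle and pericyte markers overlapped (1319 to 1691 against 1689 to 2692 CPM), with 2 of 5 higher and 1 lower. Endothelial markers overlapped too (962 to 1031 against 965 to 1430 CPM), with 1 of 5 higher, Pecam1 (log2 fold change 0.34, adjusted p = 0.0415). Of the fast skeletal muscle markers, Myh1 passed the test as higher, at 0.11 to 0.32 CPM in floxed and 0.60 to 1.21 CPM in cKO hearts. No marker of these lists was at 0 in a whole group, and their part in the changes of the members was not tested. In whole tissue, a change in the number of cells of a type cannot be told apart from a change in RNA per cell.

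Among the MAPK-specific genes, the ERK phosphatases Dusp6 and Dusp4 rose. Dusp6, the cytoplasmic phosphatase selective for ERK (chr10:99263231-99267489, plus strand), had 32.6, 37.5 and 42.0 CPM in the floxed hearts and 90.5, 82.6 and 72.0 CPM in cKO hearts. All cKO hearts thus exceeded the highest floxed heart, and the log2 fold change was 1.13 (SE 0.13, adjusted p = 0.00637). Of the 8 genes, Dusp6 was the one that passed the test whichever heart was left out, with log2 fold changes from 1.03 to 1.22 and adjusted p from 0.00181 to 0.0452. Dusp4, a nuclear phosphatase of ERK and JNK (chr8:34807297-34819894, plus strand), had 6.46, 7.46 and 7.26 CPM in the floxed hearts and 44.0, 33.1 and 11.2 CPM in cKO hearts. The 3 floxed hearts were nearly equal, whereas the cKO hearts spread widely, with cKO 6 lowest, and the log2 fold change was 2.07 (SE 0.47, adjusted p = 0.0288). It lay between 1.64 and 2.45 with single hearts left out, and passed the test in 1 of 6 such fits, the one without cKO 6.

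Dusp8, a phosphatase of JNK and p38 (chr7:142079490-142095843, minus strand), had 17.9, 20.8 and 26.5 CPM in the floxed hearts and 32.2, 42.1 and 69.9 CPM in cKO hearts. The cKO hearts were again all higher, here with cKO 6 at the top and cKO 4 at the bottom, and the log2 fold change was 1.14 (SE 0.28, adjusted p = 0.0377). Left-out hearts moved it between 0.77 and 1.35, and it passed the test in 2 of 6 fits. Annotated transcripts on the opposite strand share exon bases with 3 of the 8 genes, Spry1 (710 bases, Gm42922), Dusp3 (604, Gm20659) and Dusp8 (66, Gm32786). Among the other members such overlaps were largest in Dusp12 (891) and Dusp5 (547). Whether strand was used in counting is not stated in the sources used here, and without it reads from the shared bases cannot be told apart.

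Dusp16, a phosphatase of JNK and p38 with the highest mean count of its class, had 67.1, 71.6 and 60.0 CPM in the floxed hearts and 64.1, 64.2 and 77.8 CPM in cKO hearts. The groups overlapped, with a log2 fold change of 0.05 (SE 0.11, adjusted p = 0.768). Dusp1, the immediate early MAPK phosphatase whose promoter holds a CRE, had 30.5, 36.0 and 31.3 CPM in the floxed hearts and 39.2, 35.1 and 43.2 CPM in cKO hearts. These ranges overlapped, and its log2 fold change of 0.26 (SE 0.11) did not pass the test (adjusted p = 0.139). Dusp5, the nuclear ERK phosphatase whose promoter carries the CArG boxes, had 2.77, 3.32 and 4.67 CPM in the floxed hearts and 5.53, 5.15 and 5.61 CPM in cKO hearts. The groups did not overlap, but the log2 fold change of 0.60 (SE 0.21) missed the threshold (adjusted p = 0.0906). The other 4 genes of the class, Dusp2, Dusp7, Dusp9 and Dusp10, had log2 fold changes from -0.38 to 0.77 and adjusted p of 0.276 or more.

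Of the atypical Dusp genes, 1 of 11 tested rose (9.09%), which is near the share of all genes (9.32%). This was Dusp3 (chr11:101971143-101987013, minus strand), a small phosphatase that can act on ERK and JNK. It had 134, 129 and 175 CPM in the floxed hearts and 191, 218 and 245 CPM in cKO hearts, which did not overlap. The log2 fold change was 0.58 (SE 0.14, adjusted p = 0.0332), and 2 of 6 fits with a heart left out passed the test. Dusp11, an RNA phosphatase, had 188, 155 and 156 CPM in the floxed hearts and 173, 151 and 139 CPM in cKO hearts. These overlapped, with a log2 fold change of -0.11 (SE 0.12, adjusted p = 0.567). The other 9 had log2 fold changes from -0.61 (Dusp26) to 0.16 (Dusp22) and adjusted p of at least 0.305. Among them was Dusp27, a striated muscle protein without phosphatase activity, at 101 ± 2.91 CPM in floxed and 113 ± 19.5 CPM in cKO hearts (mean ± SD, n = 3).

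Both classes of inhibitor that act upstream of ERK rose in cKO hearts, Sprouty in 2 of 3 genes tested and Spred in 2 of 3. Of all genes, 9.32% rose. Spry1, an inhibitor of receptor tyrosine kinase signalling (chr3:37639947-37644598, plus strand), had 25.1, 31.4 and 30.5 CPM in the floxed hearts and 85.8, 90.8 and 61.2 CPM in cKO hearts. Even the lowest cKO heart lay far above the highest floxed heart, and the log2 fold change was 1.45 (SE 0.17, adjusted p = 0.00654). It passed the test in 5 of 6 fits with a heart left out and had an adjusted p of 0.0505 without floxed 1. Spry4, of the same family, had 28.0, 21.7 and 37.6 CPM in the floxed hearts and 51.5, 57.9 and 47.5 CPM in cKO hearts. The groups did not overlap, and the log2 fold change was 0.85 (SE 0.20, adjusted p = 0.0305). Spry4 passed the test in 2 of 6 fits with a heart left out. Spry2 had 44.9, 49.4 and 48.1 CPM in the floxed hearts and 51.0, 49.8 and 58.6 CPM in cKO hearts. Its lowest cKO heart lay only just above the highest floxed heart, and the log2 fold change of 0.16 (SE 0.09) did not pass the test (adjusted p = 0.230).

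Spred1, which brings the Ras inhibitor neurofibromin to the membrane (chr2:117121374-117182279, plus strand), had 70.7, 79.2 and 79.8 CPM in the floxed hearts and 126, 113 and 103 CPM in cKO hearts. The groups were clearly apart, with a log2 fold change of 0.58 (SE 0.10, adjusted p = 0.0156), and 3 of 6 fits with a heart left out passed the test. Spred2 (chr11:19924375-20024026, plus strand) had 23.4, 27.2 and 28.7 CPM in the floxed hearts and 31.1, 36.8 and 40.5 CPM in cKO hearts. Here the gap between the groups was small, and the log2 fold change of 0.45 (SE 0.12) was just past the threshold (adjusted p = 0.0456). With a heart left out, 1 of 6 fits passed the test. Spred3, the least abundant of the 3, did not overlap between groups either, with 5.18 ± 1.12 CPM in floxed and 7.25 ± 0.73 CPM in cKO hearts (mean ± SD of 3 hearts). The log2 value of 0.49 (SE 0.19) did not pass the test (adjusted p = 0.116).

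The cKO hearts were not alike across the 8 genes. Dusp4, Dusp6 and Spred1 were highest in cKO 4, Spry1 and Spry4 in cKO 5, and Dusp8, Dusp3 and Spred2 in cKO 6. Without cKO 4, the heart with Xist, 6 of the 8 genes passed the test, and the same 6 passed with the Y-linked level as a covariate, Dusp4 and Spry4 being lost in both. Among the P1 hearts this covariate mainly marks cKO 4 (-5.30, against 5.55 to 6.11 in the others). The 2 fits are therefore nearly the same and not separate checks. Without floxed 1 only Dusp6 passed the test, and without floxed 2 or cKO 5 only Dusp6 and Spry1 did. The number of all genes called fell in these fits too, from 2587 to 160, 668 and 542, respectively.

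**Figure D2:**
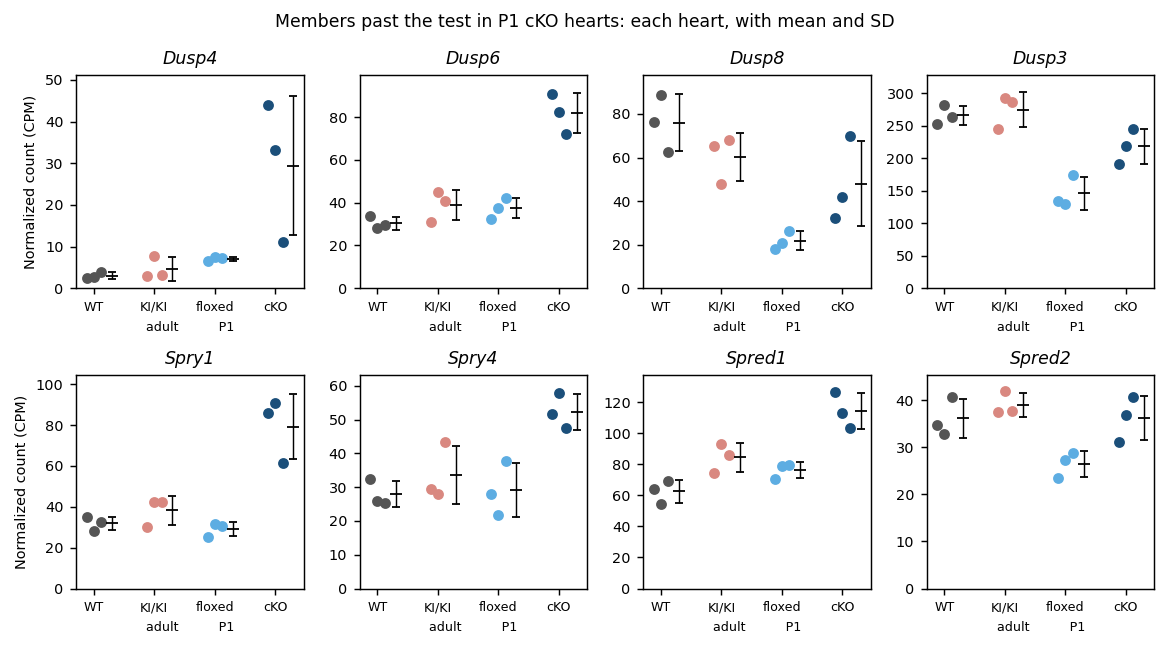
Normalized counts (CPM) of the 8 members that rose in P1 cKO hearts, in each of the 12 hearts (points, in order of replicate number) with the mean and SD of each group of 3 (bars). In every panel the 3 cKO hearts lie above the 3 floxed hearts, and in the adult hearts the groups overlap in all panels but Spred1.

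In adult KI/KI hearts no member passed the adjusted threshold among the 26 tested, and none of 14592 genes did (0%) with edgeR's test. Lemd2 was at 31.9, 34.7 and 33.0 CPM in WT hearts and at 25.6, 25.1 and 24.8 CPM in KI/KI hearts, a log2 fold change of -0.39 (SE 0.06, adjusted p = 0.181). At an unadjusted p under 0.05 there were 3 members, Spred1, Dusp1 and Dusp6, or 11.5%, which is below the 16.2% found among all genes. DESeq2, the tool of the study, was also run here and called 518 of 14555 genes at an adjusted p under 0.05. Among them was 1 member, Spred1, and this count was not tested against the share of all genes. The study stated a fold-change cutoff as well, so 518 is not its own count. The groups did not overlap in 1 tested member that was higher in KI/KI hearts, Spred1 (3.85%, against 11.2% of all genes), and in 3 that were lower, Dusp1, Dusp10 and Dusp11 (11.5%, against 10.8%). Median log2 fold changes were -0.11 for the MAPK-specific Dusp genes, -0.03 for the atypical ones, 0.27 for Sprouty, 0.25 for Spred and 0.002 for all genes tested. The 6 Sprouty and Spred genes tested had positive log2 fold changes, from 0.12 to 0.44.

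Spred1 was at 64.3, 54.6 and 69.3 CPM in WT hearts and at 74.4, 93.1 and 86.1 CPM in KI/KI hearts. The KI/KI hearts were all higher, by a log2 fold change of 0.44 (SE 0.12, adjusted p = 0.233). Dusp6 was at 33.7, 27.9 and 29.4 CPM in WT hearts and at 31.1, 44.8 and 40.6 CPM in KI/KI hearts. KI/KI 4 lay within the WT range, and the log2 fold change was 0.37 (SE 0.15, adjusted p = 0.297). Dusp1 was at 99.7, 74.5 and 75.3 CPM in WT hearts and at 53.5, 68.0 and 59.0 CPM in KI/KI hearts. All KI/KI hearts were lower, with a log2 fold change of -0.46 (SE 0.14, adjusted p = 0.244).

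The remaining genes that rose in cKO hearts overlapped between WT and KI/KI hearts. Spry1 was at 34.8, 28.1 and 32.5 CPM in WT hearts and at 30.2, 42.1 and 42.3 CPM in KI/KI hearts, with KI/KI 4 inside the WT range (log2 fold change 0.27, SE 0.15, adjusted p = 0.395). Dusp8 was at 76.4, 88.7 and 62.6 CPM in WT hearts and at 65.3, 47.7 and 68.0 CPM in KI/KI hearts. Only KI/KI 5 lay below the WT range (log2 fold change -0.32, SE 0.17, adjusted p = 0.370). Dusp4 was at 2.37, 2.77 and 3.87 CPM in WT hearts and at 2.88, 7.82 and 3.17 CPM in KI/KI hearts. Its log2 fold change of 0.64 (SE 0.43, adjusted p = 0.474) came from KI/KI 5, since it was 0.001 without that heart.

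Spry4 was at 32.4, 25.9 and 25.4 CPM in WT hearts and at 29.6, 27.9 and 43.4 CPM in KI/KI hearts, with only KI/KI 6 above the WT range (log2 fold change 0.28, SE 0.18). Dusp3 was at 253, 282 and 263 CPM in WT hearts and at 245, 293 and 287 CPM in KI/KI hearts (0.06, SE 0.09). Spred2 was at 34.8, 32.8 and 40.7 CPM in WT hearts and at 37.4, 41.9 and 37.6 CPM in KI/KI hearts (0.12, SE 0.10). All 3 genes thus overlapped broadly, with adjusted p of 0.464 or more.

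Among the abundant members of each class, Dusp16 was at 66.1, 73.3 and 59.6 CPM in WT hearts and at 61.8, 50.1 and 62.5 CPM in KI/KI hearts (log2 fold change -0.18, SE 0.11). Dusp11 was at 134, 130 and 125 CPM in WT hearts and at 124, 120 and 119 CPM in KI/KI hearts. Its groups were apart by a small gap (-0.10, SE 0.05), without passing the test (adjusted p = 0.379). Spry2 was at 25.0, 25.6 and 27.6 CPM in WT hearts and at 27.5, 29.1 and 27.8 CPM in KI/KI hearts (0.12, SE 0.07), and these ranges touched.

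Summed marker levels were apart between the adult groups for several cell types. CM markers were at 65950 to 73570 CPM in WT hearts and at 46990 to 64990 CPM in KI/KI hearts, lowest in KI/KI 5. Macrophage markers were at 173 to 246 CPM in WT and at 260 to 285 CPM in KI/KI hearts, and fibroblast markers at 1488 to 1708 CPM in WT and at 1714, 2713 and 1961 CPM in KI/KI hearts. No single marker of these 3 lists passed the test. Cycling markers overlapped, at 28.7 to 57.2 CPM in WT hearts and at 34.6, 78.1 and 34.4 CPM in KI/KI hearts. Their part in the values of the members was not tested.

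To ask whether a member changed by a different amount in the 2 models, the difference of the log2 fold changes (cKO minus floxed, less KI/KI minus WT) was tested in a fit of all 12 hearts. In that contrast the model and the age cannot be told apart. Of 27 members, 1 passed an adjusted p of 0.05, Spry1, against 2.43% of 15729 genes. The Spry1 difference was 1.19 on the log2 scale (SE 0.24, adjusted p = 0.0346), and it passed the test in 3 of 12 fits with a heart left out. Dusp8 (1.48, SE 0.37, adjusted p = 0.0623), Dusp1 (0.73, SE 0.19, adjusted p = 0.0678) and Dusp6 (0.77, SE 0.20, adjusted p = 0.0711) came next and missed the threshold. With DESeq2 all 4 of these genes passed it, in a fit where 1310 of 14877 genes did. For Spred1 the difference was 0.15 (SE 0.16, adjusted p = 0.656). For the other genes that rose in cKO hearts it was 1.43 for Dusp4, 0.53 for Dusp3, 0.57 for Spry4 and 0.34 for Spred2, with adjusted p from 0.137 to 0.306.

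The control hearts showed how these genes stand in the normal heart at each age. Levels between genes are compared as mean CPM per kb of exon, with exon lengths from GENCODE M21. Dusp3 was the highest member in all 4 groups, at 56.8 CPM per kb in adult WT and 31.1 in P1 floxed hearts. Dusp1 ranked 2nd in adult WT hearts (25.1 CPM per kb) and 8th in P1 floxed hearts (9.85), while Spry2 ranked 8th (12.5) and 3rd (22.7). The lowest tested members in adult WT hearts were Dusp14 (0.28 CPM per kb), Dusp2 (0.29) and Spred3 (0.31). From floxed to cKO hearts, Spry1 moved from 7th to 3rd (9.98 to 27.3 CPM per kb) and Dusp4 from 20th to 10th (2.58 to 10.7), while Dusp6 moved from 5th to 4th (11.9 to 26.1).

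**Figure D3:**
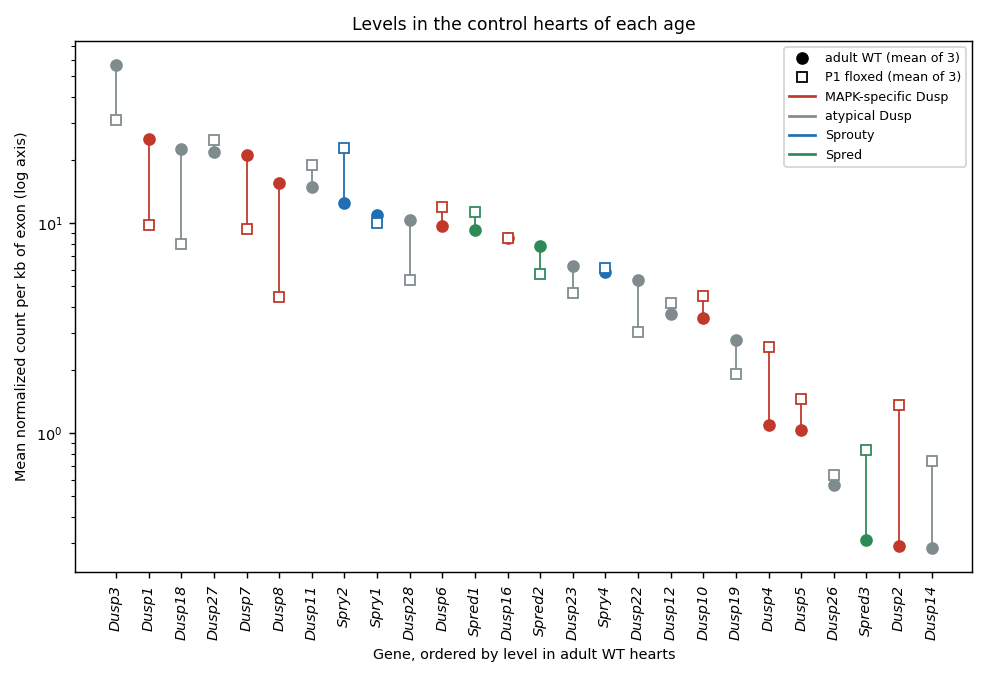
Mean level (CPM per kb of exon, log axis) of the 26 tested members in adult WT hearts (filled circles) and P1 floxed hearts (open squares), each the mean of 3 hearts, ordered by the adult level. Dusp3 stands highest at both ages, and the lines are longest for Dusp2, Dusp8, Dusp18, Spred3 and Dusp14.

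Between the control groups, which differ in age and in the floxed allele at once, 18 of 26 members passed the test. In P1 floxed hearts 8 were higher than in adult WT hearts (30.8% of those tested, against 33.4% of 15183 genes) and 10 were lower (38.5%, against 31.8%), so that the members moved about as often as other genes. The MAPK-specific class split evenly, with Dusp2 (log2 fold change 2.24, SE 0.30), Dusp4 (1.22, SE 0.19) and Dusp6 (0.31, SE 0.12) higher and Dusp8 (-1.80, SE 0.17), Dusp1 (-1.35, SE 0.13) and Dusp7 (-1.16, SE 0.10) lower. Among atypical genes, Dusp11 and Dusp27 were higher and Dusp3, Dusp18, Dusp19, Dusp22, Dusp23 and Dusp28 lower, with Dusp18 (-1.50, SE 0.29) and Dusp28 (-0.93, SE 0.10) furthest. Spry2 was higher at P1 (0.87, SE 0.08), whereas Spry1 (-0.13, SE 0.12) and Spry4 (0.07, SE 0.20) did not pass the test. Spred1 (0.29, SE 0.10) and Spred3 (1.41, SE 0.24) were higher, and Spred2 was lower (-0.45, SE 0.12). The P1 floxed hearts are also the controls of the cKO comparison, so the values of these comparisons are given side by side without an overlap.

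The other genes of the pathway were described in 5 lists written from general knowledge, 110 of whose 111 genes were in the table. The lists were chosen with earlier results of these data known, so their counts are a description and no independent support. In P1 cKO hearts 31 of 103 tested passed the test, 21 higher and 10 lower (against 9.32% higher and 7.57% lower of all genes), and 15 of the 31 were in 1 list, the transcripts that ERK signalling induces. Of its 19 genes tested, 14 passed the test as higher and 1 as lower, with a median log2 fold change of 1.45. Egr2, an immediate early transcription factor, had 1.79, 1.46 and 1.15 CPM in the floxed hearts and 10.6, 9.66 and 7.16 CPM in cKO hearts (log2 fold change 2.65, SE 0.24). Its relatives Egr3 (2.55, SE 0.23) and Egr1 (1.81, SE 0.16) rose as well, as did the ETS factor Etv4 (2.06, SE 0.20), all with an adjusted p of at most 0.00502. Etv1, another ETS factor of the list, was the 1 that passed the test as lower (-0.62, SE 0.11, adjusted p = 0.0139). Epha4 was also lower in every cKO heart than in any floxed heart (-0.83, SE 0.32), but did not pass (adjusted p = 0.113).

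Genes of the kinase cascades themselves passed the test about as often as all genes, at 4 of 25 in the Ras-ERK cascade and 3 of 23 in the JNK, p38 and ERK5 cascade. In the Ras-ERK cascade 2 genes rose, the small GTPases Rras2 (log2 fold change 0.53, SE 0.07) and Rras (0.81, SE 0.15), and 2 fell, among them the docking adaptor Gab1 (-0.60, SE 0.11), with a median of 0.15 over the list. In the JNK, p38 and ERK5 cascade no gene passed the test as higher and 3 passed it as lower. These 3 were Map2k6, a kinase that activates p38 (-1.40, SE 0.20), Mapk10, which encodes JNK3 (-1.01, SE 0.13), and Map2k5 (-0.31, SE 0.08). Of the 23 genes tested, 11 had positive and 12 had negative log2 fold changes. Map2k6 had 22.0, 22.2 and 20.5 CPM in the floxed hearts and 6.09, 7.53 and 11.1 CPM in cKO hearts, with no overlap.

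Other negative regulators of the pathway gave 4 higher and 1 lower among 18 tested, against 9.32% higher and 7.57% lower of all genes. Rasa3, which switches Ras off as a GTPase-activating protein, had 42.5, 43.6 and 47.6 CPM in the floxed hearts and 98.1, 96.0 and 90.7 CPM in cKO hearts. The spread within each group was small against this gap, and the log2 fold change was 1.09 (SE 0.08, adjusted p = 0.00481). Dab2ip (0.54, SE 0.09), of the same kind of protein, and Errfi1, an inhibitor of the EGF receptor (0.71, SE 0.14), also rose, while Rasal2 fell (-0.61, SE 0.09). In the list of FGF ligands, receptors and adaptors, the receptor Fgfr1 rose (0.46, SE 0.11) and the ligand genes Fgf1 (-0.53, SE 0.10) and Fgf9 (-0.85, SE 0.20) and the related Fgf13 (-0.55, SE 0.13) fell, among 18 tested. The counts of both lists are small and were not tested against the shares of all genes.

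In adult KI/KI hearts none of 101 genes of these lists passed the test, and DESeq2 called 4, where it called 518 of all 14555 genes. The smallest p values in the list of ERK-induced transcripts belonged to Phlda1 (log2 fold change 0.83, SE 0.22, adjusted p = 0.231) and Etv5 (0.73, SE 0.19, adjusted p = 0.231), and the median of that list was 0.12. Phlda1 was at 19.0, 27.0 and 36.1 CPM in WT hearts and at 46.2, 51.9 and 47.1 CPM in KI/KI hearts, which did not overlap. Those of the other lists were at -0.23 for Gab1 and 0.51 for Gab2, -0.24 for Mapk10 and -0.43 for Map2k6, 0.35 for Rasa3 and -0.16 for Rasal2, and 0.50 for Fgf18 and -0.78 for Fgf10, with adjusted p from 0.220 to 0.307. In the test of the difference between the models, 7 of 104 genes passed (against 2.43% of all genes), 5 with a larger value in the P1 comparison (Epha2, Fosl2, Dab2ip, Rasa3 and Rras2) and 2 with a smaller one (Etv1 and Mapk10).

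**Figure D4:**
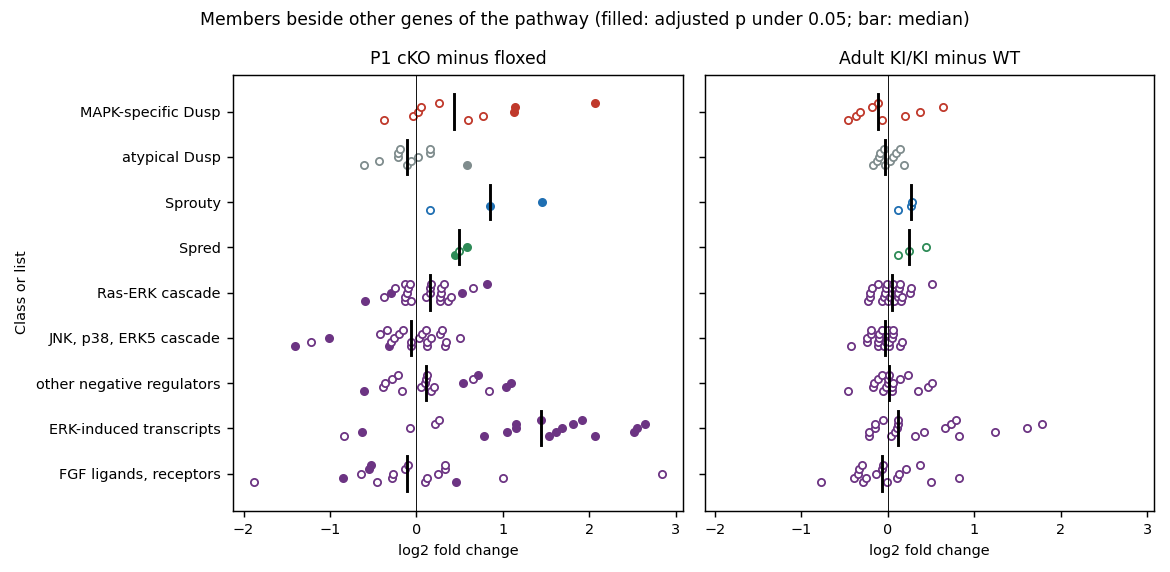
Log2 fold change of every tested gene in the 4 classes of members and the 5 pathway lists, in P1 cKO against floxed hearts (left) and in adult KI/KI against WT hearts (right). Filled points passed an adjusted p of 0.05 and black bars mark the median, which is highest for the ERK-induced transcripts in the left panel (1.45).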

How the data were processed

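RNA from the hearts of 12 mice, 3 per group, was sequenced as poly(A) RNA. Per the labels and methods, adapters were removed with Trim Galore, STAR 2.7.2b placed the reads on mm10, SAMtools 1.9 was applied, and HTSeq gave reads per gene. The authors deposited these raw counts unnormalized. Whether strand was used in counting is not given in the sources used here, so reads of overlapping genes on opposite strands cannot be told apart. The table held 24062 symbols, 3623 of them at 0 in every library, and no column was left without a sample.

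The fits were made with edgeR 4.0.16 under R 4.3.3, using TMM factors, the filterByExpr filter, the quasi-likelihood test with robust dispersion and Benjamini-Hochberg adjustment over all genes tested. Each comparison used its own 6 libraries, and the difference between the models used all 12. CPM were computed with TMM factors over the 12 libraries, and a floor of 3 counts equals 0.0603 to 0.0962 CPM, which covers counting error only. Replicates differed beyond sampling noise, with a chi-square per degree of freedom of 20.2 to 146. Each library was 1 mouse, so p values reflect the spread between mice.

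Exon lengths and coordinates were taken from GENCODE M21 (GRCm38), in which 94.5% of the symbols were found, whereas the counting annotation was another one of the same assembly. Promoters came from RefSeq. Values of every heart are given for members past a threshold and for the 2 most abundant of each class. Up to 4 genes are named per pathway list, those with the smallest p among genes that passed the test. The value of 1 such gene of the Ras-ERK list is not reported here. Members and lists were chosen with earlier results of these data known. The alternatives were DESeq2 1.42.0, limma-voom (limma 3.58.1), RLE size factors, other filters and dispersions, a fold change above 2, a Y-linked covariate, 1 fit of all libraries and each library left out. The code was tested on simulated counts. Replicate numbers are shared between adult and P1 groups only. The deviations of same-numbered hearts correlated between -0.54 and 0.26 over 13389 genes, so the numbers were not taken to pair the mice.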

Additional observations from a re-analysis of the deposited data

Results flagged for a closer look

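Spry1 was picked out because its change differed between the 2 models. The log2 fold change was 1.45 in P1 cKO against floxed hearts and 0.27 in adult KI/KI against WT hearts, and the difference of 1.19 (standard error 0.24) passed the interaction test in edgeR with an adjusted p of 0.0346. Spry1 was higher than every control heart in 3 of 3 cKO hearts and in 2 of 3 KI/KI hearts. With a heart left out, the difference stayed between 1.05 and 1.34 and the adjusted p between 0.00724 and 0.108, and it passed in 3 of 12 such fits. Under 7 other tools or settings the adjusted p lay between 0.000258 and 0.0432, while with the replicate number as a block 0 members passed. The adult and newborn mice differ in age, in the allele and in the cells that carry it, and these cannot be told apart. In groups of 3 no heart was tested as an outlier.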

How the results depend on the processing

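Of the 8 members that rose in cKO hearts, the same 8 passed the test with DESeq2, RLE size factors, at least 10 counts in every library and both other dispersion settings. DESeq2 called 3737 of 15677 genes, against 2587 of 15317 in the main fit and 2520 to 2667 genes under the other settings named. With limma-voom 5 passed (Dusp3, Dusp6, Spred1, Spry1 and Spry4), with a fold change above 2 required 4 passed, without a filter 7 did, and with each heart left out 1 to 6 did. Of all genes, 2418 were called with limma-voom, 2326 without a filter and 160 to 3463 with a heart left out. With a fold change above 2 required, 2.85% of all genes rose. In adult KI/KI hearts DESeq2 called 1 member and 4 pathway genes (518 of all 14555 genes) where edgeR called 0. With hearts left out 0 members, 0 to 1 pathway genes and 0 to 56 of all genes passed. In the difference between the models DESeq2 called 4 members and 13 pathway genes, among 1310 of 14877 genes called. Leaving out hearts gave 0 to 4 members and 0 to 14 pathway genes, with 51 to 924 of all genes called. Pathway genes called in cKO hearts numbered 7 to 42 with a heart left out. Of the 18 members called between the control groups, 7 differed by more than 2-fold. The median log2 fold change of the MAPK-specific Dusp genes in cKO hearts was 0.264 among members with a mean of at least 1 CPM and 0.255 with at least 10 counts in every library, which leave Dusp9 out, and 0.32 to 0.49 with a heart left out. In adult hearts it was -0.18 to -0.03 with a heart left out, and that of the atypical genes was 0.015 without a filter and -0.011 to 0.037 with a heart left out. Signs turned only for values close to 0. With a heart left out, Dusp16 in cKO hearts ranged from -0.046 to 0.103, Dusp16 between the control groups from -0.092 to 0.072, Spry4 between the control groups from -0.175 to 0.249, and the difference between the models from -0.09 to 0.093 for Dusp11 and from -0.024 to 0.099 for Spry2. Dusp11 in the difference between the models was 0.017 with DESeq2 and 0.015 with RLE size factors. Dusp16 between the control groups was -0.029 with DESeq2, -0.024 with RLE size factors and -0.009 without a filter. The causes were not tested, apart from the genes and hearts that an alternative removes by construction.

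With the replicate number as a block, 17 members passed between the control groups, and 0 in the difference between the models, where 0 of 15729 genes did. No paired analysis was possible within the adult or the P1 comparison because their groups share no replicate number. The deviations of same-numbered hearts were not alike, so the numbers were not read as pairs.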

Other observations

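Some members stayed outside the comparisons because of low counts. Dusp21 and Spry3 had 0 counts in all 12 hearts. Dusp13 was at 0.03 to 0.14 CPM in adult WT hearts and at 0.18 to 0.24 CPM in KI/KI hearts, a few counts per library, and Dusp15 reached at most 0.26 CPM. Dusp9 was tested in the P1 comparison and in the difference between the models, but in neither comparison with adult WT hearts, and was at 0.11 to 0.35 CPM in floxed and at 0.27 to 0.44 CPM in cKO hearts. Summed lung epithelium markers reached 100 CPM in WT 3 and 34.8 CPM in KI/KI 4, against at most 0.68 CPM in the other adult hearts, and ranged from 2.44 to 42.9 CPM in the P1 hearts. In WT 3 and KI/KI 4 nearly all of the sum was 1 gene, Scgb1a1, at 95.6 and 34.0 CPM. Sftpc, Sftpb and Ager were at or below 0.44 CPM in these hearts. Of the 8 members that rose in cKO hearts, WT 3 was the highest WT heart for Dusp4, Spred1 and Spred2, and KI/KI 4 was the highest KI/KI heart for none. The part of these markers in the values was not tested.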
